A study of Mus musculus with 11 samples.

Results

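The genes described here are the intraflagellar transport (IFT) and ciliary trafficking genes of the mouse retina. They were chosen by symbol, by a rule that uses no measured value: every gene named Ift or Bbs followed by a number, and 14 named genes, Kif3a, Kif3b, Kif3c, Kifap3, Kif17, Ttc8, Tulp1, Tulp3, Rpgr, Rpgrip1, Cep290, Unc119, Arl3 and Rp2. Earlier results of these data were known when the rule was set. The rule found 36 genes of the 25311 in the data. By role they are 3 genes of the IFT-A complex, 11 of IFT-B, 9 of the BBSome and its chaperonins (Ttc8 among them), 5 of kinesin-2, and 8 of the connecting cilium and its cargo.

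Single cells of P10 retinas from C57BL/6J littermates were captured in droplets (inDrop v3), and RNA molecules were counted by unique molecular identifiers (UMIs). Control mice received PBS (n = 3), and Phase I ROP mice received streptozotocin (STZ), which lowers insulin and raises blood glucose in the neonate, as a model of the early phase of retinopathy of prematurity (n = 3). Pups of an omega-3 diet group (n = 2) and an omega-6 diet group (n = 3) were nursed by dams on diets enriched in the named long-chain fatty acids, and all of them also received STZ, so no diet group has a control without STZ. The diet pups came from the same litters, split into 2 cages, and the anterior segment and the retinal pigment epithelium were dissected away before papain digestion. The model is one of insulin deficiency. Each mouse gave 1 library, and a p-value measures the spread between these mice.

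The cells were clustered and each cluster was named from markers. Of 20033 cells kept, 9746 were rods, 3596 bipolar cells, 3287 amacrine cells, 1425 Müller glia and 1126 cones, and these 5 classes were tested. Total UMIs per mouse ran from 2565568 to 6517776. The 3 control libraries differed from the 3 Phase I ROP libraries in several measures. The control mice had 1550 to 2341 UMIs per cell (medians) against 1003.5 to 1190 in Phase I ROP. Medians of the diet mice ran from 1386.5 to 2215 and overlapped those of the controls. The rod share was 24.5% to 31.3% in control, 46.5% to 53.9% in Phase I ROP and 45.1% to 61.1% in diet mice. Control mice had only 13 to 46 cones each. The nuclear RNA Rn7sk reached 78.1 to 388 CPM (UMIs of a gene per 1000000 UMIs of the class) in the control classes and at most 25.1 in the Phase I ROP classes. The 11 rod markers summed to 14149 to 25104 CPM in control rods and to 36759 to 51059 in Phase I ROP rods. In bipolar cells these markers, none of which was at 0, summed to 833 to 1559 and to 1831 to 2849, and in amacrine cells to 707 to 805 and to 1327 to 1897. The 9 pigment epithelium markers summed to 487 to 733 CPM in control rods and to 113 to 254 in Phase I ROP rods, with 4 and 2 of them at 0. The part of these differences between libraries in the results below was not tested, and library and treatment cannot be told apart. Between any pair of the 11 libraries, at most 52 cell barcodes were shared.

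A photoreceptor's outer segment is a modified primary cilium, and everything it is made of passes through a narrow connecting cilium. IFT particles are carried outward by kinesin-2, a motor of Kif3a with Kif3b or Kif3c and the adaptor Kifap3, and are returned by dynein-2, with IFT-B serving mainly outward and IFT-A inward movement. The BBSome is a coat that links membrane proteins to the IFT trains, Cep290, Rpgr and Rpgrip1 build and hold the gate at the cilium's base, and Unc119, Arl3 and Rp2 load and unload lipid-anchored proteins such as transducin. Loss of many of these genes causes photoreceptor degeneration.

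Sequences bear on these counts in 2 ways. The first concerns how reads were assigned. Transcripts of Kif3a share a stretch of 81 bases with Ccdc36, Timm22 and Dennd4a, on the same strand. It lies at bases 3060 to 3140 of the 3161 bases of the coding transcript Kif3a-203, in exon 18 of 18, 21 bases from its 3′ end, where this assay reads. The opening 30 bases, all in capitals since every base is shared, lie at chr11:53601866-53601895 on the plus strand of GRCm38.
Kif3a shared stretch: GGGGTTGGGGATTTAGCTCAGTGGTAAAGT

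The other concerns promoters, as background to genes that are often regulated together. RFX factors, which switch on ciliary genes, bind an X-box made of an inverted repeat whose arm reads GTTGCC. RefSeq promoters (GRCm38.p6, from 250 bases before to 50 bases after the gene start) were found for 33 members. GTTGCC, searched on both strands, occurred in 11 of their 36 promoters (30.6%) and in 12.5% of 32851 promoters in the table. The full repeat GTTNCCNNGGNAAC, which contains that arm in some of its forms, occurred in Bbs7 alone among the members and in 0.451% of all promoters. A match is a string of letters in this window and not a measured binding site. The windows are shown for Bbs7, for the full repeat, and for 3 members whose counts are described below, with the matched letters in capitals and written along the gene's strand. Bbs7 lies at chr3:36613489-36613518 (minus), Bbs1 at chr19:4906609-4906638 (minus), Ift27 at chr15:78174073-78174102 (minus) and Kif3a at chr11:53567259-53567288 (plus).
Bbs7: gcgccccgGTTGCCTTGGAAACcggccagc
Bbs1: atggctgagctgGTTGCCaaggcgacgcct
Ift27: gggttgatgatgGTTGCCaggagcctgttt
Kif3a: caccccgcaggcGTTGCCccagtctagcgt

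By mean level, most of these genes were at their highest in photoreceptors. By the mean CPM over 11 mice, 20 members were highest in rods, 9 in cones, 3 in amacrine cells, 2 in bipolar cells and 2 in Müller glia. The leading class did not always lead in single mice. It was above the second in 11 of 11 mice for Cep290 (rods), but in only 2 for Kif3a (cones above amacrine cells) and 3 for Tulp3 (rods above Müller glia). These counts were not set against all genes. Of the 34 members with a mean of at least 10 in some class, 9 were higher in rods than in bipolar cells, amacrine cells and Müller glia in each of the 11 mice (Unc119, Bbs1, Cep290, Ttc8, Arl3, Bbs7, Tulp1, Rpgrip1 and Bbs5). This pattern was met by 3.37% of all 13946 genes at such a level. No member was below those 3 classes in rods in every mouse, as 3.71% of all genes were. Rods and cones were both above the other classes in every mouse for 6 members, Unc119, Bbs1, Arl3, Tulp1, Rpgrip1 and Bbs5, and for 1.16% of all genes. These are descriptions of levels, with no test, and the clusters themselves were made from expression, although only 1 member was among the variable genes used.

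Unc119, the carrier of myristoylated transducin, ran from 777 to 2213 CPM in rods (median 1918) and from 1215 to 2090 in cones (median 1792). Bipolar cells held 428 to 699 and amacrine cells 53.4 to 196. The rod and cone ranges overlapped, bipolar cells lay below both in every mouse, and amacrine cells lay below bipolar cells. Rpgrip1, which anchors Rpgr in the connecting cilium, ran from 260 to 1507 in rods and from 20.8 to 106 in amacrine cells. Tulp1, a tubby protein of photoreceptors, went the other way between the photoreceptors. It ran from 434 to 746 in cones and from 265 to 593 in rods, and cones were above rods in 10 of 11 mice. Cep290, a scaffold of the ciliary gate, was higher in rods than in cones in 11 of 11 mice, with means of 268 and 194.

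Some members did not follow the photoreceptors. Kifap3, the kinesin-2 adaptor, was highest in amacrine cells in each of the 11 mice (131 to 245, median 181), above bipolar cells (49.7 to 102) and rods (23.6 to 90.9). It was the only member of which this was true, against 5.82% of all genes. Ift46, an IFT-B subunit, was higher in bipolar cells (64.6 to 113) than in rods (36.6 to 92.1) in all 11 mice. Ift20, the IFT-B subunit that also sits at the Golgi, had a mean of 241 in bipolar cells against 202 in amacrine cells and 135 in rods, and rods were below amacrine cells in every mouse. Kif17, another outward motor, reached a mean of no more than 2.93 in these 5 classes and Bbs10, a chaperonin-like protein, no more than 6.83.

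**Figure D1:**
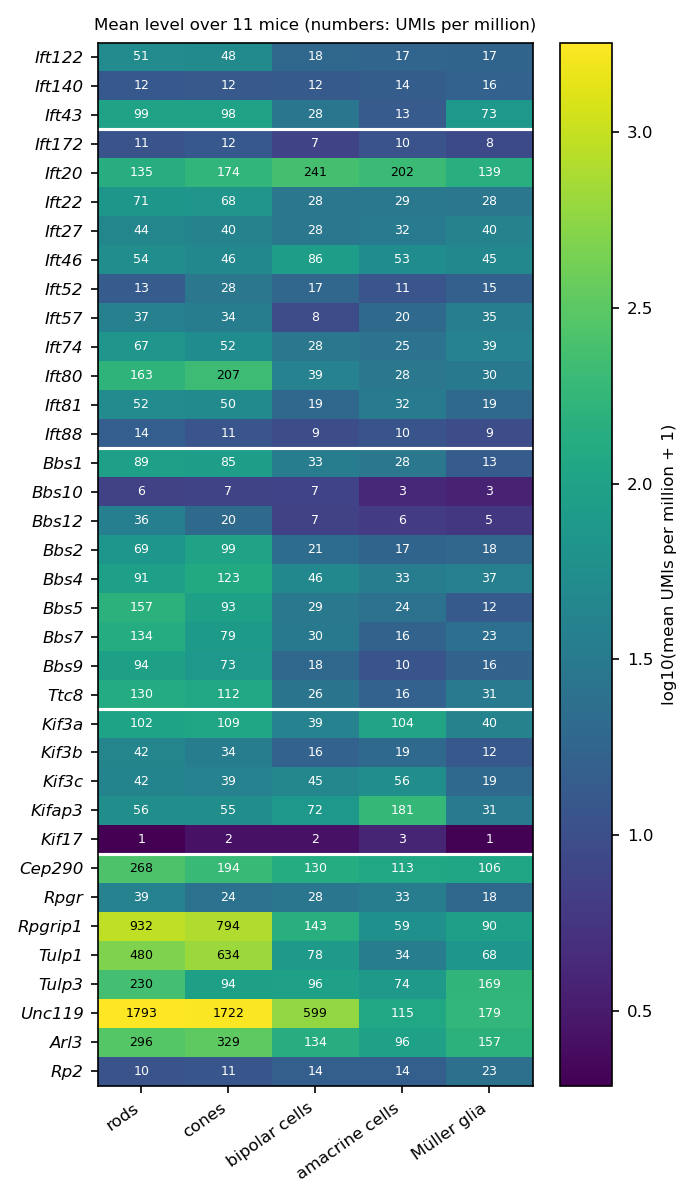
Mean level of each of the 36 genes (down the side, grouped from top to bottom as IFT-A, IFT-B, BBSome and chaperonins, kinesin-2, and connecting cilium and cargo) in 5 retinal classes, over 11 mice. The printed numbers are CPM and the colour is log10 of that mean plus 1, so colours and numbers compare a gene between classes. Unc119 falls from 1793 in rods to 115 in amacrine cells, and Kifap3 rises from 56 to 181.

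The 6 small classes had under 10 cells in some mice and were not compared between groups. Pooled over all mice, 96 retinal ganglion cells held Kifap3 at 266 CPM (95% exact Poisson interval 240 to 294) and Unc119 at 57.6 (45.9 to 71.4), the former above its rod mean of 56.2 and the latter below its rod mean of 1793. In 31 horizontal cells Kif3a stood at 185 (144 to 234). In 75 cells named retinal pigment epithelium, Kifap3 had 0 UMIs of 103707, which allows up to 35.6 CPM at the upper exact bound. These intervals cover counting error only.

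The comparison of Phase I ROP vs. control asked how neonatal hyperglycemia changes each class. Levels below are scaled CPM (library totals multiplied by edgeR's TMM factors) for control mice 1, 2 and 3 and then Phase I ROP mice 1, 2 and 3, and p-values come from edgeR's quasi-likelihood test, adjusted over all genes tested in the class with the Benjamini-Hochberg method. In rods, 14 of the 29 members tested changed, 11 higher and 3 lower in Phase I ROP, while 38.4% of all 7899 genes tested changed. The median log2 fold change of the tested members was 0.55 and that of all genes 0.02. All 5 BBSome and chaperonin genes that changed were higher, as were both kinesin-2 partners Kif3b and Kifap3, whereas Tulp3, Kif3a and Ift46 were lower. The tested members are those with enough counts, and Phase I ROP rods were the more numerous, so their count does not describe the whole set. Groups of 3 mice without overlap, as described for single genes below, were common. In rods they were found for 15 of the 29 tested members and for 51.1% of all genes. Across the 5 classes the share of all genes lay between 32.4% (Müller glia) and 55.3% (bipolar cells). A lack of overlap therefore does not set these members apart.

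Rpgrip1 stood at 310, 454 and 425 in control rods and at 1086, 1051 and 931 in Phase I ROP rods. The groups did not overlap, and the log2 fold change was 1.37 (SE 0.23, adjusted p = 0.000229). Ift80, an IFT-B subunit, stood at 80.8, 37.9 and 107 against 223, 191 and 189, with every Phase I ROP mouse above every control (1.33, SE 0.29, adjusted p = 0.00186). Rpgrip1 shares exons with Supt16 on the opposite strand, and without strand the reads of such a pair cannot be told apart.

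Among the BBSome genes, Bbs1, a core subunit, stood at 34.0, 43.3 and 49.5 in control rods and at 77.8, 130 and 123 in Phase I ROP rods. These groups were apart as well, by a log2 fold change of 1.35 (SE 0.33, adjusted p = 0.00394). Bbs2, another core subunit, stood at 38.3, 10.8 and 44.3 against 76.8, 108 and 93.0 (1.44, adjusted p = 0.00602). Ttc8, the subunit also known as Bbs8, stood at 68.0, 86.6 and 65.1 against 120, 143 and 178 (1.03, adjusted p = 0.00748). In all 3 the lowest Phase I ROP mouse was above the highest control. Bbs9, a further subunit, was more scattered, at 80.8, 5.41 and 65.1 against 113, 106 and 118 (1.05, SE 0.39, adjusted p = 0.0441). Bbs12, one of the chaperonin-like proteins that assemble the BBSome, had the largest increase, from 29.8, 0 and 2.61 to 51.2, 72.8 and 49.6 (2.47, SE 0.63, adjusted p = 0.00589). The control values rest on very few UMIs, and Bbs12 overlaps exons of Cetn4 on the opposite strand and of Gm43439 on the same strand. Bbs4, Bbs5 and Bbs7, the remaining tested members of this group, did not pass the test.

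In the kinesin-2 motor the counts of called members went both ways. Kif3b, a motor subunit, stood at 8.51, 27.0 and 20.8 in control rods and at 51.2, 81.9 and 53.1 in Phase I ROP rods, with no overlap (1.71, SE 0.44, adjusted p = 0.00651). Kifap3 stood at 42.5, 54.1 and 28.7 against 61.0, 84.9 and 82.4 (0.93, SE 0.35, adjusted p = 0.0427). Kif3a, the subunit common to both motors, stood at 200, 260 and 279 against 93.5, 69.8 and 23.9, all Phase I ROP mice lower (-2, SE 0.36, adjusted p = 0.000407). In control rods 192 of its 202 UMIs came from cells that also held genes sharing its sequence. Whether Kif3a differs in rods apart from those genes could not be tested, as described below. Kif3c, the alternative partner, had a log2 fold change of 0.84 (SE 0.42) and was not called (adjusted p = 0.124).

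Tulp3, a tubby protein that brings receptors into cilia with IFT-A, had the largest difference of any member. It stood at 876, 784 and 620 in control rods and at 98.4, 56.1 and 42.5 in Phase I ROP rods. The lowest control was far above the highest Phase I ROP mouse, and the log2 fold change was -3.52 (SE 0.30, adjusted p = 6.14e-07). Tulp3 is the 1 member that was among the variable genes used for clustering, and a cluster of 451 rods led by Zfp990 and Gm15645, genes that share sequence with Tulp3, also had Tulp3 among its leading genes. That cluster held 9.85% to 17.1% of the rods of control mice and 1.12% to 3.60% of those of Phase I ROP mice. With clusters made without the members, the pathway lists and the cell type markers, Tulp3 in rods gave -2.60 (adjusted p = 1.23e-05). In those clusters Zfp990 and Gm15645 were among the leading genes of the cone cluster, and the part of this shift in the value was not tested. Ift46 was lower too, at 59.5, 97.4 and 112 against 46.3, 51.6 and 34.5 (-1.06, adjusted p = 0.0169). The IFT-A subunit Ift122 (1.11, adjusted p = 0.0335) and the IFT-B subunit Ift57 (1.09, adjusted p = 0.0491) were higher, with no overlap between the groups. Cep290 (-0.04, adjusted p = 0.901) and Rpgr (0.59, adjusted p = 0.271) were not called.

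**Figure D2:**
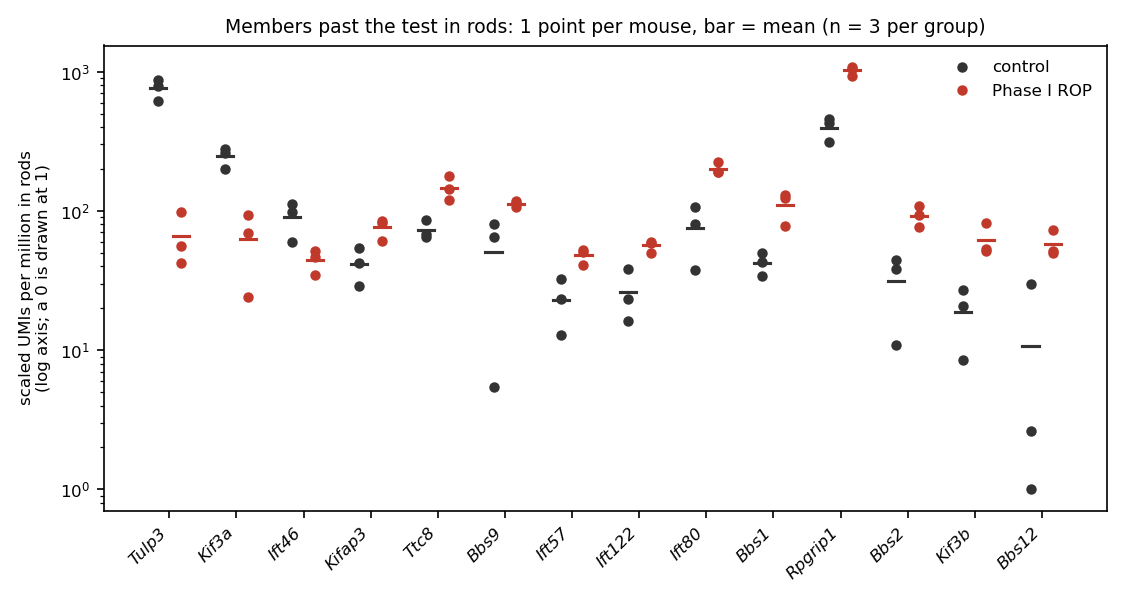
The 14 genes that changed in rods, with 1 point per mouse and a bar at the mean of each group (n = 3), ordered from the largest decrease to the largest increase. The vertical axis is a log axis of scaled CPM, on which a 0 is drawn at 1. Tulp3 shows the widest gap, with controls at 620 to 876 and Phase I ROP mice at 42.5 to 98.4, while the 0 of Bbs12 is 1 control mouse.

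The scaling bears on direction. With plain library totals in place of TMM factors, the median of all genes moved to 0.45 in bipolar cells, 0.42 in cones, 0.37 in amacrine cells, 0.35 in rods and 0.16 in Müller glia. The share of all calls that were higher moved from 57.92% to 82.67% in cones, from 53.61% to 72.85% in Müller glia, from 47.05% to 74.34% in amacrine cells, from 47.11% to 74.71% in bipolar cells and from 46.95% to 67.56% in rods. Under it 16 members were called in rods, 14 higher and 2 lower, and 13 were shared with the 14 above. Differences below are given relative to TMM scaling. The rods themselves also differed. In control mice 38.9% to 60.8% of rods lay in clusters led by rod markers, against 80.6% to 89.4% in Phase I ROP. When rods were taken from those clusters alone, 75 to 284 cells per control mouse, 8 members were called. The share of all genes called there is not given, so a loss particular to the members cannot be read from this count.

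In cones, 3 of the 15 members tested changed, 1 higher and 2 lower, against 18.8% of all 3125 genes tested, and the members' median log2 fold change was 0.06 against 0.10 for all genes. Rpgrip1 stood at 214, 275 and 200 in control cones and at 863, 1164 and 984 in Phase I ROP cones, with no overlap (2.17, SE 0.29, adjusted p = 2.66e-05). Kif3a stood at 536, 378 and 170 against 46.0, 32.9 and 25.9 (-3.20, SE 0.51, adjusted p = 0.000228). Its control values rest on 15, 11 and 11 UMIs. Of these 37, 24 came from cells that also held genes sharing its sequence. Tulp1 stood at 928, 791 and 1018 against 552, 653 and 557, also without overlap (-0.66, SE 0.22, adjusted p = 0.0384). This call was lost under 12 of 18 alternatives, with log2 values from -0.76 to -0.25 and an adjusted p of up to 0.591 by edgeR or DESeq2. Tulp3 gave no such gap here, at 143, 103 and 92.5 against 150, 121 and 73.4 (0.06, adjusted p = 0.944). Cep290 stood at 35.7, 275 and 231 against 259, 192 and 212 (0.19, adjusted p = 0.788). The rod markers summed to 5886 to 7452 in control cones and to 14086 to 19678 in Phase I ROP cones, and the part of rod RNA in the Rpgrip1 difference was not tested.

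In bipolar cells, 11 of the 28 members tested changed, 4 higher and 7 lower, against 45.3% of all 10019 genes tested. The median log2 fold change was -0.15 for these members and 0.02 for all genes. Tulp3 again led, at 224, 380 and 180 in control mice and at 51.8, 42 and 35.6 in Phase I ROP mice, far apart (-2.59, SE 0.28, adjusted p = 7.32e-06). Kif3a stood at 70.3, 51.4 and 99.6 against 33.5, 22.7 and 27.4 (-1.40, adjusted p = 0.00211). Ift22, a small GTPase of the IFT-B complex, stood at 50.6, 51.4 and 34.4 against 22.9, 15.7 and 23.3 (-1.11, SE 0.32, adjusted p = 0.0124). Ift27, the other GTPase of IFT-B, which helps the BBSome leave the cilium, was also lower (-0.96, adjusted p = 0.0398), as were Bbs4 (-0.71, adjusted p = 0.0353) and Cep290 (-0.51, adjusted p = 0.0342), each without overlap.

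Bbs1 rose in bipolar cells, from 18.3, 20 and 16.6 to 35, 50.7 and 61.7 (1.43, SE 0.33, adjusted p = 0.00305). Its partner Ttc8 rose as well, from 15.5, 7.14 and 19.0 to 24.4, 26.2 and 38.4 (1.08, adjusted p = 0.0406). Bbs2, of the same complex, fell from 33.8, 17.1 and 19.0 to 7.62, 12.2 and 12.3 (-1.10, SE 0.42, adjusted p = 0.0463). Bbs2 was thus the only member called in opposite directions, higher in rods and lower in bipolar cells. The bipolar call held under only 5 of the 14 alternatives that gave a value (adjusted p of up to 0.201), and the rod call under 17 of 18. Without scaling factors 9 members were called in bipolar cells, 7 higher and 2 lower, 6 of them shared, so the balance of directions in this class rests on the scaling.

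Rpgrip1 stood at 83, 45.7 and 54.5 in control and at 122, 126 and 118 in Phase I ROP bipolar cells (1.00, SE 0.23, adjusted p = 0.00312). It passed no longer without the likely doublets, that is, with the top 5% of Scrublet scores removed (0.60, adjusted p = 0.0982). Kif3c stood at 22.5, 21.4 and 30.8 against 48.8, 54.2 and 48.0, and passed the test (1.00, adjusted p = 0.0129). Kif3b (0.79, adjusted p = 0.190), Kifap3 (0.15, adjusted p = 0.568) and Rpgr (0.54, adjusted p = 0.234) were not called.

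In amacrine cells, 9 of the 31 members tested changed, 3 higher and 6 lower, against 38.8% of all 11315 genes tested. The median log2 fold change was -0.14 for these members and 0.02 for all genes. Tulp3 stood at 108, 189 and 128 in control mice and at 72.1, 51.8 and 39.9 in Phase I ROP mice (-1.38, adjusted p = 0.000586), and Kif3a at 173, 203 and 163 against 93.1, 76.7 and 50.8 (-1.30, adjusted p = 0.000239). Neither overlapped. The IFT-B genes were lower where they changed. Ift22 stood at 51.2, 37.7 and 45.8 against 20, 20.7 and 21.8 (-1.10, SE 0.27, adjusted p = 0.00520). Ift20 stood at 280, 279 and 197 against 166, 152 and 198, and Ift46 at 89.8, 78.8 and 59.3 against 45.1, 37.3 and 59.8. In both, the highest Phase I ROP mouse lay just above the lowest control (-0.55, adjusted p = 0.0156, and -0.68, adjusted p = 0.0320). Cep290 was lower with overlapping mice (-0.52, adjusted p = 0.0446).

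Kif3c rose in amacrine cells from 27.3, 26.3 and 28.3 to 71.1, 49.7 and 72.5 (1.24, SE 0.25, adjusted p = 0.00129). Bbs1 rose from 13.6, 16.0 and 21.6 to 31, 29 and 35.4 (0.91, adjusted p = 0.0318), and Rpgrip1 from 23.9, 32 and 35 to 41.1, 57.0 and 69.8 (0.89, adjusted p = 0.0168). All 3 were without overlap. Rpgrip1 lost its call without the likely doublets (0.28, adjusted p = 0.460). Kifap3, the member for which amacrine cells stand out, stood at 199, 154 and 181 against 174, 220 and 176, groups that overlap (0.09, SE 0.15, adjusted p = 0.661). Kif3b (0.58, adjusted p = 0.202) and Rpgr (-0.14, adjusted p = 0.731) were not called. Without scaling factors, 11 members were called in amacrine cells, 8 higher and 3 lower.

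In Müller glia, 2 of the 10 members tested changed, against 10.8% of all 4855 genes tested, and the members' median was -0.14. Unc119 stood at 80.1, 77.1 and 116 in control and at 151, 197 and 224 in Phase I ROP Müller glia (1.02, SE 0.29, adjusted p = 0.0384). Unc119 was far higher in rods and cones than in Müller glia, and the rod markers summed to 319 to 698 in control and to 1133 to 3030 in Phase I ROP Müller glia. Without likely doublets the difference was 0.52 (adjusted p = 0.425), and the part of photoreceptor RNA in it was not tested. Ift43, a subunit of IFT-A, stood at 156, 170 and 106 against 30.3, 56.3 and 74.8, with no overlap (-1.40, SE 0.38, adjusted p = 0.0310). Tulp3 stood at 344, 216 and 251 against 174, 146 and 158 and just missed the threshold (adjusted p = 0.0605). Kif3a (-0.66, adjusted p = 0.335), Cep290 (-0.34, adjusted p = 0.461) and Rpgrip1 (1.22, adjusted p = 0.136) were not called.

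Over the 5 classes, 23 of the 33 members tested in some class were called at least once, while 56.6% of all 12432 genes tested in some class were, and the members' 39 calls were split into 20 higher and 19 lower. The 23 include 8 of the 14 Ift genes and 6 of the 9 BBSome genes. The share of tested members that were called was above that of all genes in rods and Müller glia (2 of 10 in the latter), near it in cones and below it in bipolar and amacrine cells, and was not tested against it. Kif3a was lower in 4 classes, Tulp3 lower in 3, Rpgrip1 higher in 4 and Bbs1 higher in 3. Kif3a, Tulp3 and Kif3c share sequence with genes found in the same cells, and their counts apart from those cells are given below. Bbs10, Ift88 and Kif17 had too few counts for any class. Of the IFT-B genes, 2 were called higher and 1 lower of 8 tested in rods, 0 and 2 of 8 in bipolar cells, and 0 and 3 of 10 in amacrine cells. The share in rods is near the 38.4% of all genes. Those in bipolar and amacrine cells lie below 45.3% and 38.8%, but rest on few genes and were not tested against them.

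**Figure D3:**
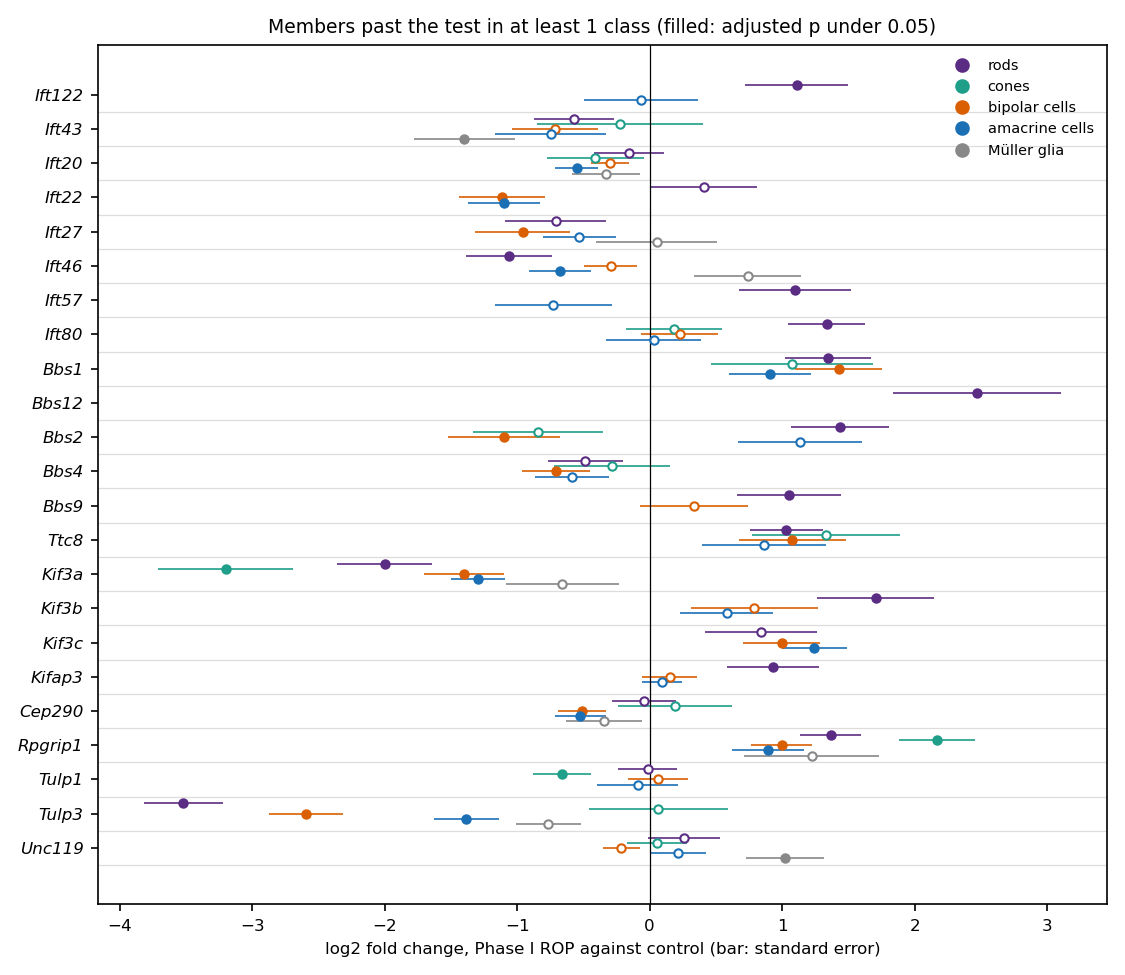
Log2 fold change of Phase I ROP vs. control (horizontal axis, bar = standard error) for the 23 genes called in at least 1 class, with 1 colour per class and filled points for an adjusted p under 0.05 (n = 3 mice per group). Rpgrip1 and Bbs1 lie right of 0 in every class where they were tested, Kif3a lies left of it, and Bbs2 is filled on both sides.

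Whether the Phase I ROP difference itself differed between classes was tested as an interaction of class and group, with each mouse as a block and rods as the reference. For cones minus rods, 2 of 29 members passed, against 5.3% of all 6232 genes. Tulp3 was one of them, with a difference of 3.65 on the log2 scale (SE 0.47, adjusted p = 3.12e-07), and it also passed for amacrine cells (2.24, adjusted p = 2.27e-05) and Müller glia (2.76, adjusted p = 2.75e-05), where its difference from control was smaller than in rods. For Müller glia that was 1 of 29 members, against 5.6% of all genes. Cells were also clustered without the members, the pathway lists and the cell type markers among the variable genes. The cone difference then became -0.46 (adjusted p = 0.660). That cone cluster had 1526 cells, with Zfp990 and Gm15645 among its leading genes. It held 54, 39 and 89 cells of control mice 1, 2 and 3, against 14, 13 and 46 in the main clusters. The cone result for Tulp3 thus depends on which cells are called cones, of which controls held few.

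For bipolar cells minus rods, 3 of 32 members passed, against 4.97% of all 10922 genes. Bbs2 had the largest, at -2.75 (SE 0.54, adjusted p = 0.00425), and it differed between cones and rods as well (-2.14, SE 0.60, adjusted p = 0.0229). Ift80, higher in rods, differed by -1.35 (adjusted p = 0.0350), and Arl3, the GTPase that releases Unc119 cargo, by -0.99 (adjusted p = 0.0453). For amacrine cells minus rods, 4 of 33 passed, against 8.81% of all genes. Beside Tulp3 these were Ift22 (-1.58, adjusted p = 0.0354), Arl3 (-0.999, adjusted p = 0.0221) and Bbs5, a BBSome subunit that binds phosphoinositides (-1.52, adjusted p = 0.0421). Arl3 was not called within any class, standing at 285, 211 and 234 against 330, 372 and 371 in rods (0.55, adjusted p = 0.0554) and at 139, 102 and 90.3 against 71.1, 64.2 and 97.9 in amacrine cells (-0.50, adjusted p = 0.0739). The median difference of the tested members was -0.06 for cones, -0.60 for bipolar cells, -0.42 for amacrine cells and -0.23 for Müller glia, beside 0.30, -0.20, 0.03 and 0.03 for all genes. With median-of-ratios scaling the share of all calls that were higher moved from 51.01% to 77.46% in bipolar cells, and without scaling factors from 92.73% to 82.53% in cones and from 79.91% to 66.08% in Müller glia.

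The counts of 3 members moved with those of other genes in the same cells. The cutoff was shared cells of at least 0.25 of the cells with either gene. Members below it can share sequence too. Bbs4 shares a 31-base word with 2778 genes, Bbs1 with 2755, Ift80 with 1857, Rpgrip1 with 1297 and Bbs2 with 0. Ift57 overlaps exons of Gm15518 on the opposite strand. The part of such genes in the counts of these other members was not tested. Of the 1942 cells with a Kif3a UMI, 1255 also had a Ccdc36 UMI, 1375 a Dennd4a UMI and 1207 a Timm22 UMI, the genes that share the 81-base stretch printed above. In rods these genes were lower in Phase I ROP as Kif3a was, each without overlap. Ccdc36 ran from 270.5 to 368 CPM in control rods and from 44.7 to 161 in Phase I ROP rods, Timm22 from 167 to 222 and from 45.6 to 98.3, and Dennd4a from 359 to 405 and from 96.9 to 183. In all, 78.5% of Kif3a UMIs came from cells with a UMI of at least 1 of these genes, which are 23.5% of cells. In control rods it was 192 of 202 UMIs, and in Phase I ROP rods 142 of 168. In rods without such a UMI, only 10 Kif3a UMIs in control mice and 26 in Phase I ROP mice were left, at 7.12 to 12.8 and 6.49 to 12.4 CPM, which overlap. In the test without those cells Kif3a kept its call in amacrine cells (-1.08, adjusted p = 0.0425) and lost it in bipolar cells (-0.33, adjusted p = 0.639). In rods and cones the counts left were too few for the test, so whether Kif3a differs in rods apart from the genes that share its sequence could not be tested.

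Tulp3 was found in 2772 cells, 1179 of which also held Mrpl13, 1083 Sympk, 801 Gm15645 and 783 Zfp990. These genes share stretches with Tulp3 that are mostly on the opposite strand, near the 3′ end of Tulp3 transcripts, and 58.0% of Tulp3 UMIs came from cells with such a UMI (74.7% in control rods and 45.4% in Phase I ROP rods). In rods the genes that share these stretches were also lower in Phase I ROP, each without overlap. Zfp990 ran from 268 to 393 CPM in control rods and from 19.96 to 42.7 in Phase I ROP rods, Gm15645 from 276 to 414 and from 16.2 to 41.7, Mrpl13 from 368 to 516 and from 66.6 to 98.3, and Sympk from 392.1 to 529.7 and from 49.4 to 89.4. How many of the Tulp3 UMIs belong to these genes was not tested. In all, 4834 genes share a 31-base word with Tulp3, and only cells with a UMI of Mrpl13, Sympk, Gm15645 or Zfp990 were left out next. In the other cells Tulp3 was still lower in Phase I ROP rods, at 27.6 to 51.6 CPM against 81.2 to 249 in control. The test gave -2.37 (adjusted p = 0.000103), and the part of the remaining genes in it was not tested. Tulp3 was lower in bipolar cells as well, at 33.6 to 35.7 against 70.3 to 103 (-1.76, adjusted p = 5.91e-05). In amacrine cells the call was lost (-0.78, adjusted p = 0.0594). Kif3c overlaps 1110002L01Rik on the opposite strand. Of 1492 cells with that gene, 1440 had Kif3c, and 87.6% of Kif3c UMIs came from cells with it or with Gm48512. The level of 1110002L01Rik was itself higher in Phase I ROP, without overlap, in both classes where Kif3c was called. Control amacrine cells held it at 18.2 to 25.7 CPM, and those of Phase I ROP mice at 46.1 to 56.2. For bipolar cells the values were 10.4 to 22.8 (control) and 35.1 to 44.9 (Phase I ROP). Outside the cells with either gene, amacrine cells held 7 Kif3c UMIs in control and 27 in Phase I ROP mice. Whether Kif3c differs apart from these genes was not tested.

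**Figure D4:**
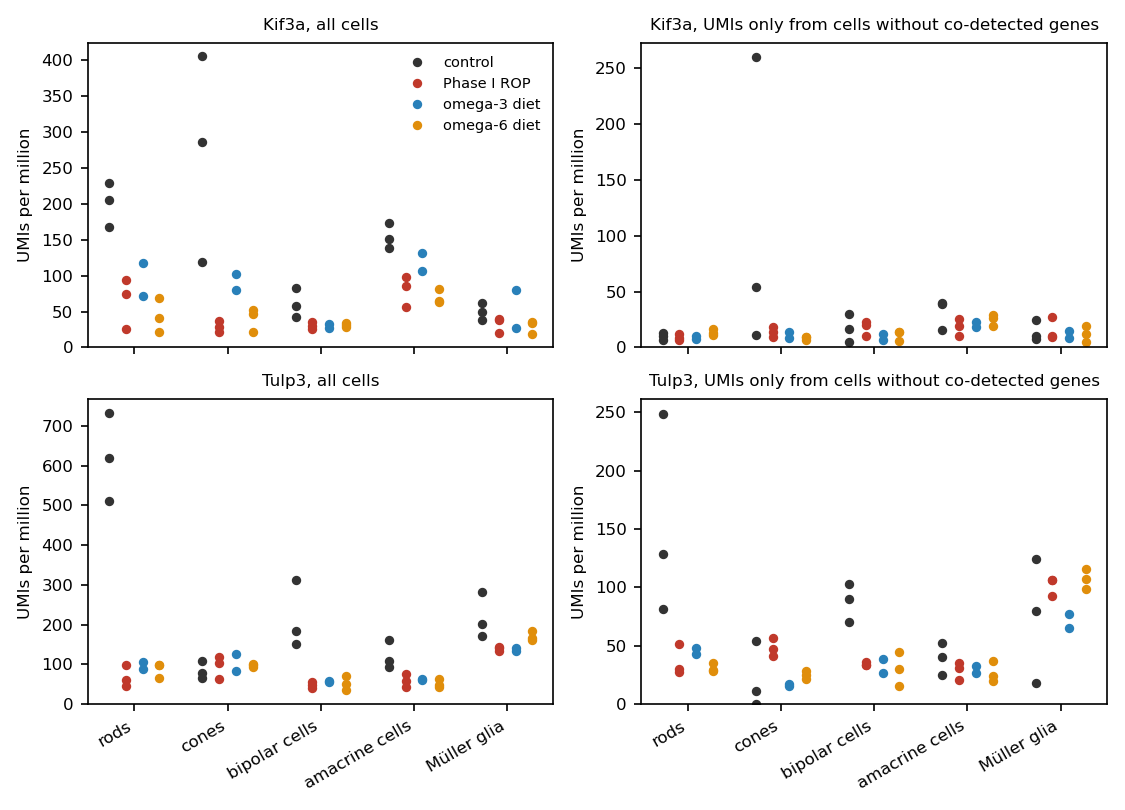
Kif3a (top) and Tulp3 (bottom) in CPM, 1 point per mouse, in 5 classes and 4 groups. All cells are on the left. The right side holds only UMIs from cells with no UMI of the co-detected genes that share sequence. These are Ccdc36, Timm22 and Dennd4a for Kif3a, and Mrpl13, Sympk, Gm15645 and Zfp990 for Tulp3. Other genes that share sequence were not left out. On the right the Kif3a groups overlap in rods, at 7.12 to 12.8 in control and 6.49 to 12.4 in Phase I ROP, while Tulp3 in control rods (81.2 to 249) stays above Phase I ROP (27.6 to 51.6).

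A further 74 genes came from lists of IFT subunits, dynein-2, BBSome partners, the transition zone, cargo carriers, and ciliary kinases with transcription factors such as the RFX family. In rods 15 of 56 tested changed, 13 higher and 2 lower. Those with the largest increases were Tub (1.92), a tubby protein, Lca5 (1.61), whose product binds IFT proteins, and Ttc30b (1.51), an IFT-B subunit, and the decreases were Spata7 (-1.92), of the connecting cilium, and Dynlrb1 (-0.54), a dynein light chain. In cones 2 of 20 changed, the ciliary kinase Mak (1.74) and the small GTPase Rab28, with 1 UMI in control and 58 in Phase I ROP cones. In bipolar cells 19 of 48 changed, 11 higher and 8 lower. The largest increases were Rfx5 (2.47), listed only as a member of the RFX family, Mak (2.01) and Ttbk2 (1.47). The largest decreases were Spata7 (-1.75), Wdr34 (-1.33) and Tctn1 (-1.16). In amacrine cells 20 of 54 changed, 10 each way, led by Arl13b (2.33), Unc119b (2.24) and Rab11fip3 (1.54), and by Spata7 (-1.26), Tctn1 (-1.06) and Dynlrb1 (-1.03). In Müller glia 0 of 19 passed edgeR's test. In each class the share of these genes that was called lay below that of all genes. Within them the list of dynein-2, the inward motor, was singled out after its values were seen. It had 4 lower and 1 higher of 7 tested genes in bipolar cells and 4 lower and 1 higher of 8 in amacrine cells. These shares lay above the 45.3% and 38.8% of all genes. The median log2 fold changes were -0.38 and -0.79 against 0.02 in both classes. The other classes did not show this. In rods 1 of 9 was called, lower (median of the list 0.22), in cones 0 of 4 (-0.10) and in Müller glia 0 of 5 (-0.28). The lower ones include the light chains Dynlrb1 and Dynll1, which other dyneins also use, and this list was not tested against all genes.

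The diets were compared as omega-6 vs. omega-3 within STZ mice, in a study of how these fatty acids act on the hyperglycemic retina. No member was called by edgeR's quasi-likelihood test among the 35 tested in rods, 34 in amacrine cells, 31 in cones, 31 in bipolar cells and 25 in Müller glia, nor by DESeq2. Of all genes, 0.0161% were called in rods and 0% in each of the other 4 classes. An unadjusted p under 0.05 was found for 7 members in rods, 5 in amacrine cells and 1 in cones, and for 0 in bipolar cells and Müller glia. Of all genes, such a p was found for 11% in rods, 9.89% in amacrine cells, 8.03% in cones, 4.21% in bipolar cells and 3.56% in Müller glia. Median log2 fold changes of the tested members lay between -0.04 (amacrine cells) and 0.07 (Müller glia). The omega-3 group has 2 mice.

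In rods the smallest p was that of Rpgr, whose product regulates transport through the connecting cilium. It stood at 27.3 and 36.3 scaled CPM in the omega-3 mice and at 50.5, 56.0 and 46.0 in the omega-6 mice, without overlap (0.67, SE 0.22, unadjusted p = 0.00961, adjusted p = 0.368 by edgeR). Rpgrip1 stood at 1335 and 1475 against 1229, 1066 and 1012 (-0.35, adjusted p = 0.395), and Cep290 at 269 and 378 against 268, 241 and 243 (-0.37, adjusted p = 0.434). Ift43 and Ift20 were nominally higher and Ift80 lower on the omega-6 diet (adjusted p by edgeR of 0.384, 0.404 and 0.434).

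Kif3a had the smallest p in cones, amacrine cells and Müller glia. In cones it stood at 106 and 83.6 against 50.2, 22.7 and 54.7 (-1.21, SE 0.33, unadjusted p = 0.00223, adjusted p = 0.537 by edgeR). In amacrine cells it stood at 130 and 105 against 67.1, 65.7 and 87.2 (-0.68, SE 0.20, adjusted p = 0.437), and in rods at 112 and 70.1 against 69.6, 23.6 and 44.5 (-0.95, adjusted p = 0.378). Each omega-3 mouse was above each omega-6 mouse in these 3 classes, narrowly so in rods. Diet groups without overlap were found for 19.0% (Müller glia) to 28.9% (rods) of all genes, depending on the class. In amacrine cells without the cells that hold Ccdc36, Timm22 or Dennd4a the Kif3a difference turned to 0.38. In cones 94 of 107 Kif3a UMIs of omega-3 mice and 50 of 65 of omega-6 mice came from cells holding those genes. Outside such cells Kif3a in cones ran from 8.73 to 13.5 CPM on the omega-3 and from 6.43 to 9.45 on the omega-6 diet, which overlap. Kif3b in amacrine cells stood at 28.6 and 26.9 against 12.6, 18.6 and 10.3 (-0.97, adjusted p = 0.472). In Müller glia Kif3a was at -0.85 (adjusted p = 0.994), and in bipolar cells the smallest p was that of Rpgrip1 (-0.50, adjusted p = 0.991). Ift20 in amacrine cells stood at 179 and 156 against 236, 212 and 260 (0.49, adjusted p = 0.464 by edgeR), and Kifap3 and Kif3c had no unadjusted p under 0.05 in any class.

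**Figure D5:**
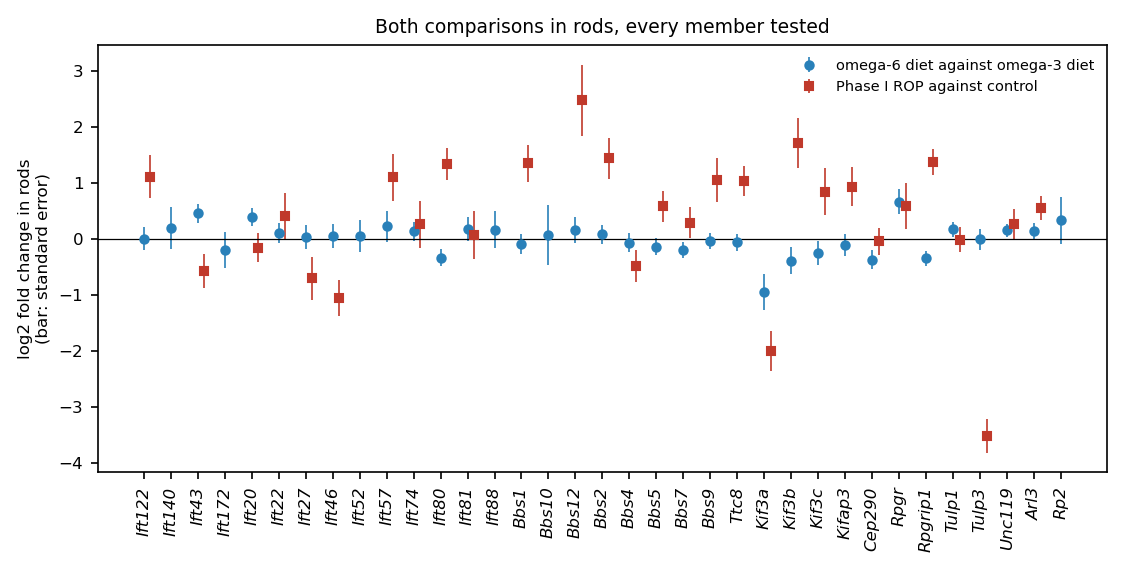
Log2 fold change in rods (vertical axis, bar = standard error) of every gene tested, for omega-6 vs. omega-3 diet (circles, n = 3 and 2 mice) and for Phase I ROP vs. control (squares, n = 3 and 3). The circles stay between -0.95 (Kif3a) and 0.67 (Rpgr), and the squares run from -3.52 (Tulp3) to 2.47 (Bbs12). The 2 comparisons share no mice.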

How the data were processed

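UMI counts per gene and cell were deposited as whole numbers without normalization, for 20067 cells and 25311 genes. The authors grouped barcodes and UMIs with bcbio-nextgen and umis, excluded barcodes with few reads and assigned reads to GRCm38 GENCODE transcripts with Rapmap. A setting for strand is not given in the sources used here. Columns without a sample numbered 0.

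Cells with more than 300 genes were kept (20033). Clusters came from Seurat 5.3.0 (R 4.3.3; 2000 variable genes, 75 principal components, resolution 0.2; 25 clusters) and were named from markers. UMIs were summed per mouse and class, in classes with at least 10 cells in every mouse, since the mouse is the replicate. Groups were compared by edgeR 4.0.16 (quasi-likelihood test, TMM, default filter, Benjamini-Hochberg adjusted p under 0.05 over all genes tested), each fit holding only its own 2 groups, and the test was tried on simulated data. Interactions used the mouse as a block. The members, marker lists, pathway lists and tests were chosen with earlier results of these data known. Named members are those called in any class, the kinesin-2 genes and Rpgr, Rpgrip1 and Cep290 wherever tested, and, where none was called, the member with the smallest p. Of the other ciliary genes, up to 3 called in each direction are named, those with the largest fold change.

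As alternatives, results were recomputed with DESeq2 1.42.0, without the filter, with median-of-ratios scaling, with all 4 groups fitted together, with a block for replicate number, without each mouse in turn, and from cells with more than 500 genes, sums thinned to equal depth, clusters led by a marker, clusters made without the members and lists, and removal of likely doublets. Scrublet (scanpy 1.11.5) marked 72 cells (0.359%), too few to be credible, so the 5% of cells with the highest scores were removed instead. Cells with co-detected genes left out, and library totals without scaling factors, were added after seeing the data. The clusters made without the members and lists had the cell type markers left out of the variable genes too. Shared sequence was sought as 31-base words in GENCODE M21 transcripts of GRCm38, between a member and the genes most often found in the same cells (shared cells at least 0.25 of the cells with either gene). No barcode was removed for being shared between libraries: all 55 pairs of libraries shared some.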

Additional observations from a re-analysis of the deposited data

Results flagged for a closer look

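The 10 differences below are those between classes in the Phase I ROP effect (log2, other class minus rods) that passed edgeR's interaction term. For Tulp3 they were 3.651 in cones, 2.237 in amacrine cells and 2.757 in Müller glia, and the last 2 kept their call under all 16 alternatives run. For Bbs2 they were -2.141 in cones and -2.755 in bipolar cells, called under 10 and 15 of 16 alternatives. In bipolar cells Ift80 differed by -1.354 and Arl3 by -0.9937, called under only 2 and 3 of 16. In amacrine cells Arl3 differed by -0.9993, Ift22 by -1.575 and Bbs5 by -1.519, called under 11, 9 and 9 of 16.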

How the results depend on the processing

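Counts of called members moved by over 1.5 times under some settings, the cause of which was not tested. The share of all genes called under each setting is not given beside these counts, nor beside those without scaling factors above. A change in them therefore need not be particular to the members. In Phase I ROP vs. control, rods had 14 (8 in clusters led by a marker, 9 without Phase I ROP 3 to 16 without control 2). Cones had 3 (5 with clusters made without the members and lists, 1 thinned). Bipolar cells had 11 (7 without likely doublets, 6 by DESeq2, 7 without a filter, 7 thinned, and with a mouse left out 6 without Phase I ROP 2 or 3, 7 without Phase I ROP 1 and at most 9). Amacrine cells had 9 (5 without control 1 or Phase I ROP 2, and at most 9). Müller glia had 2 (1 with clusters made without the members and lists, 1 without likely doublets, 0 by DESeq2, 1 without a filter, 1 without scaling factors, 0 without control 1, Phase I ROP 1 or Phase I ROP 2, 1 without control 2 or Phase I ROP 3, and 2 without control 3). For the diets, 1 member was called in rods without a filter. For cones minus rods (2), 1 was called in clusters led by a marker, with clusters made without the lists, by DESeq2 and thinned, and 1 without control 2 or Phase I ROP 3, otherwise 2. For bipolar cells minus rods (3), 0 were called in clusters led by a marker, 1 with cells over 500 genes, clusters without the lists, DESeq2, median-of-ratios scaling, thinning or no scaling factors, and 1 when any single Phase I ROP mouse and 2 when any single control was left out. For amacrine cells minus rods (4), 1 was called in clusters led by a marker, 7 without likely doublets, 1 by DESeq2, and 2 without Phase I ROP 1 and 1 without Phase I ROP 2 (at most 5). For Müller glia minus rods (1), 2 were called in clusters led by a marker and 2 without a filter. The other 190 counts kept within 1.5 times.

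Nothing in the labels says that replicate numbers pair mice of different groups. Correlations of same-numbered mice ran from -0.050 to 0.154 in Phase I ROP vs. control and from 0.045 to 0.273 for the diets, which share only 2 numbers. With the replicate number as a block, 11, 2, 10, 9 and 3 members were called in rods, cones, bipolar cells, amacrine cells and Müller glia, and for the diets 1 in cones and 1 in amacrine cells, both Kif3a (-1.44, adjusted p = 0.00823, and -0.81, adjusted p = 0.0472).

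For the 49 called differences of single genes, 650 values under alternatives kept the call, 202 lost it and 1 changed sign. For 18 uncalled ones, 277 stayed uncalled, 12 gained a call and 17 changed sign. Beside Tulp1 in cones and Bbs2 in bipolar cells, calls within a class were lost under 9 or 10 of 18 alternatives for Ift46, Bbs9 and Ift57 in rods, Ift27 and Bbs4 in bipolar cells and Unc119 in Müller glia. The called value that changed sign was Tulp3 in cones minus rods (-0.46 with clusters made without the members and lists). Of uncalled ones, Cep290 in rods came to 0.11 in clusters led by a marker, 0.13 with clusters made without the lists, 0.37 without a filter, 0.12 with all groups fitted, 0.29 without scaling factors and -0.10 to 0.18 with a mouse left out, and in cones to -0.25 with clusters made without the lists and -0.17 to 0.57 with a mouse left out. Kifap3 in amacrine cells came to -0.022 to 0.17 with a mouse left out. Rpgr there came to 0.014 with clusters made without the lists, 0.21 without scaling factors and -0.27 to 0.067 with a mouse left out. For the diets, Kif3a came to 0.38 in amacrine cells without the co-detected genes and in Müller glia from -1.38 to 0.18, the latter without omega-3 mouse 1.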
